A study of Mus musculus with 40 samples.

Results

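YUMM2.1 is a mouse melanoma line with an activating Braf mutation, 1 copy of Cdkn2a and 1 stabilised copy of β-catenin. The cells described here were YUMM2.1 EV, that is, cells transduced with an empty lentivirus that carries GFP and sorted for it, with their own Bmal1 (Arntl) left intact. They were transduced again with pLKO.1 lentivirus and selected as pools in puromycin, with a scrambled hairpin (shNC) or with shMyh9#4, the hairpin against Myh9 that the labels number 4. The members were therefore set by their labels: the 2 EV shMyh9#4 and the 2 EV shNC libraries, 4 of the 40 libraries of the series. The same hairpins were put into YUMM2.1 cells that overexpress wild-type Bmal1 (WT-Bmal1) or a Bmal1 without its DNA-binding basic helix-loop-helix domain (dHLH-Bmal1), and a hairpin numbered 2 (shMyh9#2) was used in all 3 kinds of cell, which gives 9 groups of 2 libraries. Groups were pools of transduced cells, not clones. The study calls its shRNA libraries of EV cells biological duplicates, without saying how the duplicates were made or naming shMyh9#4, so p-values measure the spread between these libraries, whatever its source.

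Myh9 encodes the heavy chain of non-muscle myosin IIA, the motor that pulls on actin filaments and gives a cell its cortical tension and its grip on the matrix. Actin also feeds back on transcription: monomeric actin holds the coactivators MRTF-A and MRTF-B in the cytoplasm, and when filaments form these coactivators enter the nucleus and switch on targets of SRF, many of them cytoskeletal genes, while tension keeps YAP active on TEAD targets. In melanoma, cells move between a neural crest and melanocytic state marked by SOX10 and an undifferentiated, mesenchymal state marked by SOX9, fibronectin and collagens.

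Expression was measured with QuantSeq, which counts reads at the 3′ end of polyadenylated RNA, as counts per gene. The 4 libraries held 8217193 to 9889285 counts, and the 18 shRNA libraries together 3643332 to 17485144. Values below are CPM (counts scaled to the library size) after TMM scaling, and a gene was called when its adjusted p was under 0.05 in an edgeR quasi-likelihood test fitted to all 18 libraries (14848 genes, Benjamini-Hochberg adjustment). Log2 fold changes are shMyh9#4 over shNC and carry the standard error (SE) of the fit. The 2 dHLH-Bmal1 shMyh9#4 libraries were shallow, with 3643332 and 6001340 counts, and stood furthest from EV shNC on the first principal component, which bears on every value given for that group.

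Myh9 (ENSMUSG00000022443, GRCm38 chr15:77760587-77842175, minus strand, overlapping 1 other annotated gene) was lower with shMyh9#4, but only modestly. It was at 682 and 645 CPM in EV shNC and at 479 and 448 CPM in EV shMyh9#4, from 4106 to 5933 counts per library. The groups did not overlap, and the mean with shMyh9#4 was 69.9% of that with shNC (464 ± 21.5 against 663 ± 25.8 CPM, SD, n = 2 each). The log2 fold change was -0.52 (SE 0.09, edgeR adjusted p = 0.0050). Less transcript per cell and fewer knocked-down cells in the pool cannot be told apart in bulk RNA. The call was lost without EV shNC replicate 1 and without EV shMyh9#4 replicate 2, in fits that leave 1 library in a group. The log2 fold changes there were -0.47 and -0.48.

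The other hairpin took Myh9 down further. EV shMyh9#2 stood at 223 and 241 CPM, 35.0% of shNC, and Myh9 was higher with shMyh9#4 than with shMyh9#2 by 1.00 on the log2 scale (SE 0.10, edgeR adjusted p = 2.29e-05). The same order held with the other constructs. In WT-Bmal1 cells Myh9 stood at 969 and 919 CPM with shNC and at 528 and 461 CPM with shMyh9#4 (52.4% of shNC). In dHLH-Bmal1 cells it stood at 881 and 859 CPM with shNC and at 669 and 630 CPM with shMyh9#4 (74.7%). The shMyh9#4 effect on Myh9 did not pass the test of a difference between constructs: it differed from that in EV cells by -0.42 (SE 0.13, adjusted p = 0.21) in WT-Bmal1 cells and by 0.10 (SE 0.13, adjusted p = 0.71) in dHLH-Bmal1 cells.

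**Figure D1:**
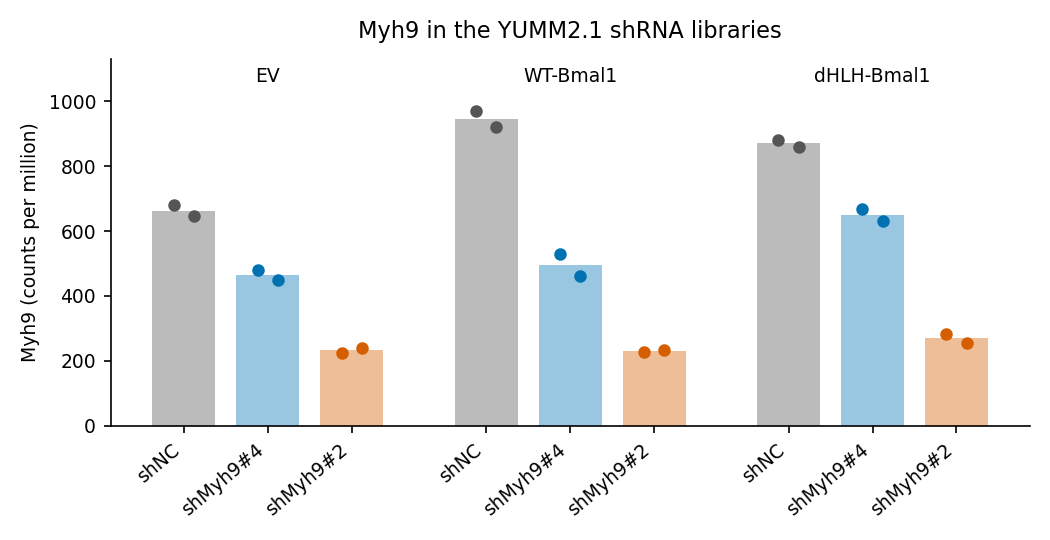
Myh9 in CPM (y axis) in the 9 shRNA groups of YUMM2.1, by construct and hairpin; bars are group means, points the 2 libraries. In EV cells shMyh9#4 sits at 448 to 479, between shNC at 645 to 682 and shMyh9#2 at 223 to 241.

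Between EV shMyh9#4 and EV shNC, 254 of 14848 genes (1.71%) were called, and most of them were higher. The count was 216 higher (1.45% of genes tested) and 38 lower (0.256%), so that 85.0% of the calls were increases. The median log2 fold change was 1.05 over the called genes that were higher and -0.65 over those that were lower. Of 120 called genes with a change of at least 2-fold, 118 were higher and 2, Nefl and Col11a1, were lower. The median over all genes tested was 0.00, and 247 of the 254 were protein-coding. The number of calls depended on single libraries: it was 114 without EV shNC replicate 1, 110 without EV shNC replicate 2, 142 without EV shMyh9#4 replicate 2 and 253 without EV shMyh9#4 replicate 1. With the 4 compared libraries alone it was 178 (134 higher, 44 lower).

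**Figure D2:**
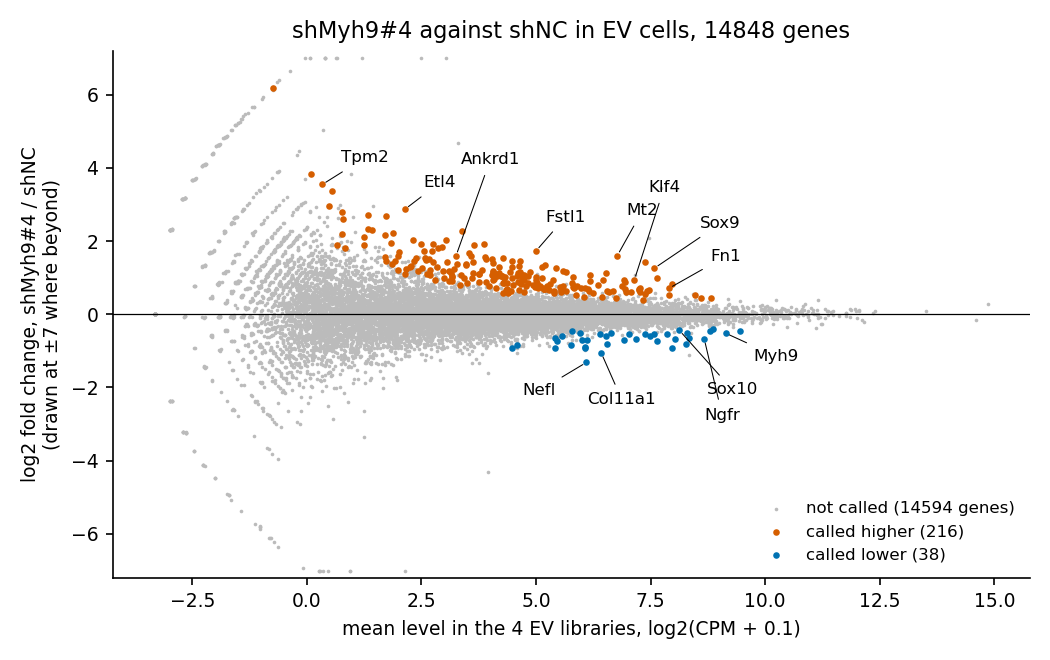
Each of 14848 genes by its mean level in the 4 EV libraries (x axis, log2 CPM + 0.1) and its log2 fold change, shMyh9#4 over shNC (y axis). Called genes are coloured, 216 higher and 38 lower, and the called genes with log2 fold changes above 2.5, such as Etl4 at 2.87, were low in level.

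The mesenchymal genes held the most calls of any list examined. Of 60 genes linked to the mesenchymal state, 52 were tested, 15 were higher and 3 lower, against 1.45% and 0.256% of all genes. The 52 had a median log2 fold change of 0.47 (0.38 with Acta2, which had no count in EV shNC, at its bound), against 0.00 over all genes. The list includes genes the study itself follows in these cells, so it is not independent evidence of a direction.

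Sox9, the transcription factor of the undifferentiated melanoma state, was at 115 and 111 CPM in EV shNC and at 260 and 281 CPM in EV shMyh9#4. Both knockdown libraries were more than 2-fold above both controls (log2 fold change 1.26, SE 0.11, adjusted p = 6.67e-06). Fibronectin, Fn1, the main glycoprotein that integrins bind, went from 181 and 182 CPM to 284 and 308 CPM (0.71, SE 0.09, adjusted p = 0.00015). Snai2, a zinc-finger repressor of epithelial genes, went from 15.3 and 18.9 CPM to 35.8 and 36.7 CPM (1.08, SE 0.14, adjusted p = 0.00026). Klf4, a Krüppel-like transcription factor, went from 101 and 93.5 CPM to 186 and 186 CPM (0.94, SE 0.12, adjusted p = 0.00022). In all 4 genes the groups lay apart by much more than the spread within a group, and all 4 were called under every alternative tried.

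Matrix genes were among the largest increases of the list. Fstl1, a secreted follistatin-like glycoprotein, rose from 13.8 and 15.8 CPM to 48.2 and 50.2 CPM (1.73, SE 0.14, adjusted p = 4.09e-06). Bgn, the proteoglycan biglycan, rose from 7.30 and 4.89 CPM to 14.6 and 17.1 CPM (1.39, SE 0.20, adjusted p = 0.00058). Col1a1, a chain of type I collagen, rose from 1.79 and 2.07 CPM to 5.83 and 5.80 CPM (1.58, SE 0.22, adjusted p = 0.00043, but 0.084 when only the 4 compared libraries were fitted). Col1a1 remained a low transcript in these cells. Twist2, a basic helix-loop-helix factor of mesenchyme, rose from 5.50 and 5.44 CPM to 12.2 and 11.8 CPM (1.13, SE 0.24, adjusted p = 0.018). Its call was lost when any of the 4 libraries was left out (adjusted p 0.066 without EV shMyh9#4 replicate 1 to 0.19 without EV shNC replicate 2).

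Not every gene of the list followed. Tnc, the adhesion-modulating matrix protein tenascin C, fell from 30.4 and 30.8 CPM to 17.3 and 16.8 CPM (log2 fold change -0.84, SE 0.16, adjusted p = 0.0055, and 0.053 to 0.060 without EV shNC replicate 1, EV shNC replicate 2 or EV shMyh9#4 replicate 2). Postn (-0.73) and Thbs2 (-0.54), both matricellular proteins, were the other 2 that fell. Axl, a receptor tyrosine kinase of invasive melanoma, did not pass the test, at 615 and 589 CPM with shNC and 616 and 690 CPM with shMyh9#4 (0.12, SE 0.09, adjusted p = 0.75). Prrx2, a mesenchymal homeobox factor, was at 2.27 and 2.39 CPM with shNC and at 3.73 and 8.76 CPM with shMyh9#4. It did not pass in the main fit (1.43, SE 0.37, adjusted p = 0.063), but this depended on the processing. The DESeq2 Wald test called it (1.44, adjusted p = 0.011), as did edgeR with no filter on low counts (1.45, adjusted p = 0.00087). Lmo1, a LIM-domain cofactor, was at 2.63 and 2.72 CPM against 4.31 and 5.91 CPM (0.93, SE 0.32, adjusted p = 0.23).

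Of 32 melanocyte lineage genes 17 were tested, and 2 were called, both lower, against 0.256% of all genes. Sox10, the neural crest and melanocyte factor, was at 320 and 324 CPM in EV shNC and at 218 and 257 CPM in EV shMyh9#4 (-0.44, SE 0.10, adjusted p = 0.037). This call was fragile: it was lost under 8 of 12 alternatives, at an adjusted p of 0.29 without EV shNC replicate 1, 0.31 without EV shNC replicate 2, 0.33 without EV shMyh9#4 replicate 1 and 0.052 to 0.12 under the others. Ngfr, the neural crest receptor CD271, was at 507 and 495 CPM against 301 and 326 CPM (-0.67, SE 0.11, adjusted p = 0.0023, and 0.051 without EV shNC replicate 1). Mitf, the master regulator of pigment cells, was at 15.8 and 14.1 CPM against 24.3 and 14.7 CPM, groups that overlapped. The pigment genes Tyrp1, Dct and Mlana had no count in any of the 4 libraries and Pmel had 1, so the label of melanoma cells rested on Sox10, Ngfr and S100b (66.2 to 76.5 CPM) rather than on pigment genes.

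Of 16 markers of blood, endothelial, epithelial, liver, muscle, glial and red cells, 9 to 11 had no count in each library, and the sum of all 16 was 11.1 and 11.6 CPM in EV shNC and 13.8 and 20.4 CPM in EV shMyh9#4. Ptprc, Epcam and Alb, which define blood cells, epithelium and liver, had at most 1 count. The difference in the sum lay in Cdh5, the endothelial cadherin, which rose from 3.47 and 2.07 CPM to 11.8 and 9.16 CPM (1.92, SE 0.27, adjusted p = 0.00049). Pecam1, the other endothelial marker, had 52 and 52 counts with shNC and 50 and 35 with shMyh9#4. The part of other cells in the results was not tested.

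Genes of the myosin and actin pathway itself were looked at next. All 20 genes of non-muscle myosin II and its regulators were tested, and beside Myh9 only Mylk was called, against 1.71% of all genes. Mylk, the kinase that phosphorylates the myosin light chain, was at 9.21 and 12.2 CPM in EV shNC and at 21.7 and 23.8 CPM in EV shMyh9#4 (1.09, SE 0.24, adjusted p = 0.020). Its call was lost without EV shNC replicate 1 (0.30), EV shNC replicate 2 (0.066) or EV shMyh9#4 replicate 2 (0.17). The paralogous heavy chain Myh10 was at 51.2 and 57.0 CPM against 63.7 and 51.9 CPM (0.09, SE 0.15, adjusted p = 0.90), and Myh14 was at 3.03 to 5.65 CPM in the 4 libraries (-0.58, SE 0.47, adjusted p = 0.77). The light chains Myl6, Myl9, Myl12a and Myl12b, the kinases Rock1 and Rock2 and the GTPase Rhoa did not pass the test either. The 20 genes had a median log2 fold change of -0.08.

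Of 36 MRTF-SRF targets 32 were tested and 2 were called, both higher, against 1.45% of all genes, with a list median of 0.07. Tgfb1i1, the focal adhesion adaptor Hic-5, rose from 6.34 and 4.24 CPM to 22.0 and 17.4 CPM (1.90, SE 0.21, adjusted p = 5.4e-05). Tpm2, a tropomyosin of actin filaments, had 3 and 0 counts in EV shNC against 15 and 25 in EV shMyh9#4, a ratio of 12.7 with a 95% counting interval of 4.05 to 64.3, and its call was lost without EV shNC replicate 2 (0.26) or EV shMyh9#4 replicate 2 (0.16). Abundant targets did not pass the test: Actb was at 11615 and 10857 CPM against 12043 and 11936 CPM, and Vcl (vinculin) at 103 and 97.5 CPM against 89.6 and 85.1 CPM. Srf itself was at 31.1 and 34.4 CPM against 37.8 and 35.9 CPM.

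Of 18 YAP-TEAD targets tested 1 was called, against 1.71% of all genes. Ankrd1, a nuclear ankyrin-repeat cofactor, rose from 4.79 and 4.57 CPM to 16.1 and 12.3 CPM (1.60, SE 0.18, adjusted p = 8.0e-05). The commonly used targets Ccn1 (1.06, SE 0.46, adjusted p = 0.43) and Ccn2 (1.07, SE 1.26, adjusted p = 0.86) were below 5 CPM in all 4 libraries, where this depth gives little precision.

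Among stress and metabolic genes, 3 of 30 integrated stress and unfolded protein response genes were higher, against 1.45% of all genes, and none lower. These were Nupr1, a stress-induced chromatin protein (10.4 and 10.4 CPM against 19.0 and 25.2 CPM; log2 fold change 1.09, SE 0.14, adjusted p = 0.00031), Chac1, which degrades glutathione (0.99), and Herpud1 of the endoplasmic reticulum (0.86). Chac1 and Herpud1 lost their calls in the fits without EV shNC replicate 2 or EV shMyh9#4 replicate 2, Chac1 also without EV shNC replicate 1, with adjusted p up to 0.13 for Chac1 and 0.23 for Herpud1. Of 20 NRF2 targets and metallothioneins 2 were higher, against the same 1.45%. Mt2, a metal-binding metallothionein, was at 51.6 and 56.8 CPM against 127 and 203 CPM (1.60, SE 0.16, adjusted p = 2.35e-05), and Gstm1, a glutathione transferase, at 9.93 and 12.8 CPM against 21.7 and 25.7 CPM (1.05, SE 0.15, adjusted p = 0.00048). Of 40 hypoxia and glycolysis genes 2 were higher, again against 1.45%: Egln3, an oxygen-sensing prolyl hydroxylase, at 10.8 and 6.31 CPM against 17.8 and 21.2 CPM (1.20, SE 0.22, adjusted p = 0.0055), and Ndrg1 (0.57, adjusted p = 0.029). Both lost the call in some alternatives, Egln3 without EV shNC replicate 2 or EV shMyh9#4 replicate 2 (up to 0.15) and Ndrg1 without any 1 of the 4 libraries (up to 0.22).

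Other lists held no call. Over all genes tested 1.71% were called, so short lists like these can hold none without differing from other genes. None of 19 AP-1 and ATF factors passed (median 0.09): Jun was at 213 and 213 CPM against 219 and 171 CPM, Jund at 68.9 and 63.9 CPM against 63.5 and 77.7 CPM, Atf4 at 365 and 383 CPM against 408 and 426 CPM, Atf5 at 69.6 and 77.6 CPM against 96.7 and 103 CPM and Atf6 at 38.8 and 36.5 CPM against 44.6 and 41.2 CPM. Junb had a log2 fold change of 0.26 (SE 0.19, adjusted p = 0.72). The log2 fold change was 0.16 for Atf4 (SE 0.13, adjusted p = 0.77), 0.44 for Atf5 (SE 0.15, adjusted p = 0.24) and 0.19 for Atf6 (SE 0.13, adjusted p = 0.71). With no filter on low counts the edgeR fit did call Atf5 (0.45, adjusted p = 0.032). None of 17 core clock genes and Bmal1-Clock targets passed (median 0.02), and Arntl, which encodes Bmal1, was at 30.4 and 26.0 CPM against 28.2 and 26.0 CPM (-0.06, SE 0.18, adjusted p = 0.96). There was no call among 26 interferon-stimulated genes (median -0.06), 15 genes of MHC class I presentation (-0.13), 23 p53 targets (-0.06), 36 cell cycle genes (-0.02), 31 genes of cholesterol and fatty acid synthesis (-0.15), 13 genes of the RNA interference machinery (-0.01) or the 2 secreted factors tested, Vegfa (0.24) and Csf1 (0.41). A hairpin can load the RNA interference machinery or trigger an interferon response, which is why these lists were included. The shNC control carries a hairpin too, so a response that hairpins share would not show in this comparison.

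**Figure D3:**
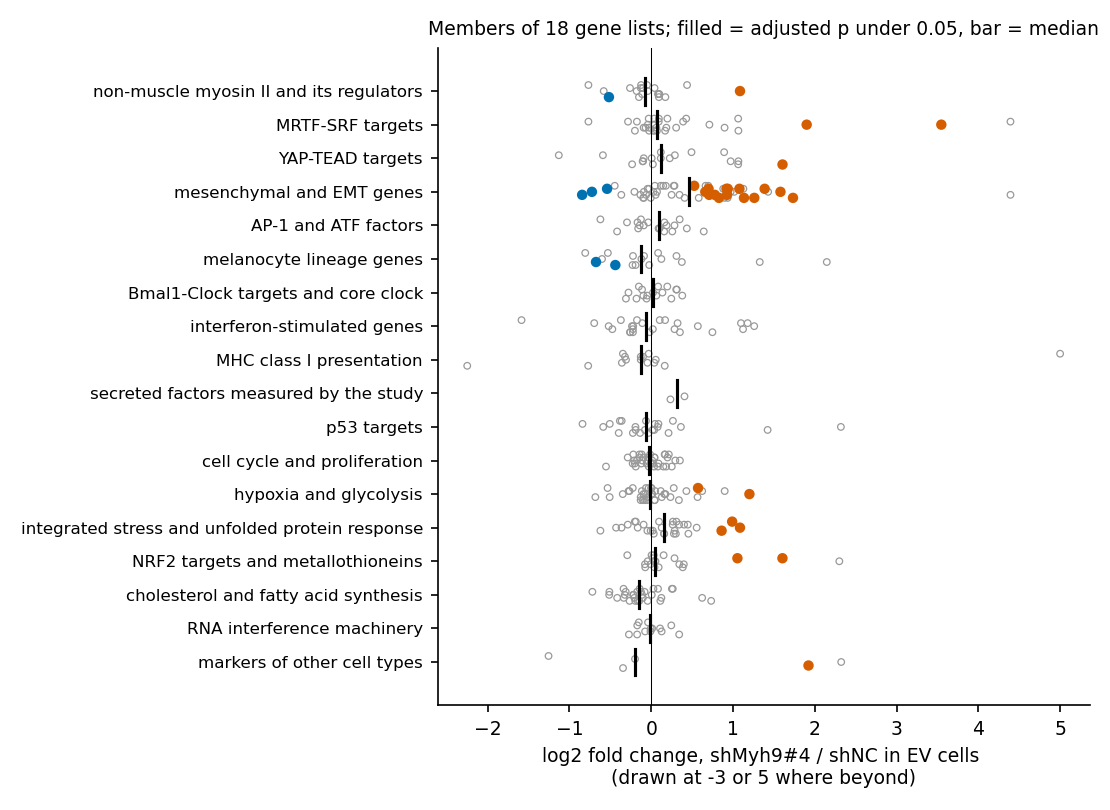
Log2 fold change, shMyh9#4 over shNC in EV cells (x axis), of each tested member of 18 gene lists (rows); filled points passed an adjusted p of 0.05, orange higher and blue lower, and the bar marks the list median. The mesenchymal list holds 15 orange and 3 blue points, and no other list holds more than 3.

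The largest increases by fold were in genes at low levels in the control cells. The 10 with the largest log2 fold change, among called genes averaging 10 or more counts in the 4 libraries and not overlapping, ran from Tpm2 through Lrrc32 (3.36), 4930556M19Rik (2.97), Etl4 (2.87), Trpa1 (2.79), Ly6a (2.71), Rps6ka6 (2.69), Sp140 (2.60) and Elavl4 (2.33) to Bicc1 (2.30). Etl4, a large gene that spans 10 other annotated genes, was at 1.08 and 0.98 CPM in EV shNC and at 8.40 and 6.82 CPM in EV shMyh9#4 (SE 0.40, adjusted p = 0.00045), and was called under every alternative. Lrrc32, which presents latent TGF-β on the cell surface, was at 0.36 and 0.11 CPM against 2.22 and 2.75 CPM. Ly6a, the surface protein Sca-1 of progenitor cells, was at 1.20 and 0.11 CPM against 4.43 and 3.97 CPM. Trpa1, a calcium-permeable channel, was at 0.48 and 0.33 CPM against 1.75 and 3.87 CPM. Each of these 10 but Etl4 lost its call without at least 1 of EV shNC replicate 1, EV shNC replicate 2 and EV shMyh9#4 replicate 2, and Lrrc32 without any 1 of the 4 libraries, with adjusted p up to 0.43 for Lrrc32. Below 10 counts on average, Plxdc1 (2 counts in the EV shNC libraries together against 33, a ratio of 15.7 with a 95% counting interval of 4.03 to 135) and Nlrp2 (0 counts against 18, at least 2.98-fold higher against 3 counts per library) were called too.

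Nefl, Col11a1, Akap12 and Ctsh were among the largest decreases. Nefl, the neurofilament light chain, fell from 91.4 and 104 CPM to 42.5 and 36.2 CPM (-1.32, SE 0.15, adjusted p = 6.7e-05). Col11a1, a fibrillar collagen chain, fell from 119 and 113 CPM to 62.6 and 48.8 CPM (-1.06, SE 0.14, adjusted p = 0.00039). Akap12, a scaffold for protein kinase A and a suppressor of migration, fell from 329 and 329 CPM to 184 and 163 CPM (-0.92, SE 0.15, adjusted p = 0.0021). Ctsh, a lysosomal cathepsin, fell from 58.3 and 53.4 CPM to 26.9 and 32.5 CPM (-0.91, SE 0.14, adjusted p = 0.0014). These 4 were called under every alternative.

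Mmp15, a membrane-bound matrix metalloproteinase (-0.92), Sema3e, a guidance ligand (-0.91), Cndp1, a dipeptidase (-0.91), Itga1, the collagen-binding integrin α1 (-0.84), and Chl1, a neural cell adhesion molecule (-0.82), completed the 10 largest decreases with Tnc. Mmp15 and Sema3e lost the call without any 1 of the 4 libraries (adjusted p up to 0.20 and 0.19), Cndp1 likewise (up to 0.46), Itga1 without any but EV shMyh9#4 replicate 1 (up to 0.35) and Chl1 without EV shNC replicate 2 (0.057).

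Promoter sequences were set beside these genes because Bmal1 with its partner Clock binds E-boxes, SRF binds CArG boxes and Jun and Fos proteins bind AP-1 sites. RefSeq promoters on GRCm38.p6, of 250 bases before to 50 after the start, were matched by symbol for 157 of the 216 genes called higher, 26 of the 38 called lower and 10044 of the symbols tested. On either strand the AP-1 motif TGANTCA was held by 12.1% of the matched promoters of genes called higher, 3.85% of those called lower and 5.09% of those of all genes tested. The E-box CACGTG was held by 8.28%, 11.5% and 10.2%, and the CArG box by 2.55%, 0% and 1.31%. These shares are descriptions with no test. Of the named genes called, 29 had a matched promoter. The AP-1 motif stood in 2 of these (6.9%), Mt2 and Mylk. The E-box stood in 4 (13.8%), Klf4, Nupr1 and Mgll among them, and the CArG box in 1 (3.45%). As examples, windows of Mt2, Mylk, Klf4 and Nupr1 are shown 5′ to 3′ on the gene's strand, with the flanks in lower case and the motif in capitals.
Mt2, chr8:94172519-94172565: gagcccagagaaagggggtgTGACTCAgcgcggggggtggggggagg
Mylk, chr16:34784866-34784912: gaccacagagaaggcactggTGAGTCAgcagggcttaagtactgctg
Klf4, chr4:55532632-55532677: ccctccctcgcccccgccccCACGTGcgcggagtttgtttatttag
Nupr1, chr7:126625670-126625715: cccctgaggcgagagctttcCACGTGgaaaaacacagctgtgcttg
In Mt2 and Mylk the motif ends 72 and 57 bases before the start that the RefSeq table uses, and in Klf4 and Nupr1 176 and 219 bases before it. In Mylk and Nupr1 that start lies inside the gene as GENCODE annotates it, so these windows belong to an internal start. All 4 genes shown were higher with shMyh9#4, by 1.60 for Mt2, 1.09 for Mylk, 0.94 for Klf4 and 1.09 for Nupr1 on the log2 scale. As 85.0% of all calls were higher, this does not tie a motif to a direction.

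The weaker hairpin was then compared with shMyh9#2 in the same EV cells. The hairpins differ in sequence as well as in how far Myh9 fell. Effects of the Myh9 level and effects of a hairpin on other transcripts therefore cannot be told apart here. Between the hairpins 73 genes (0.492%) were called, 37 higher and 36 lower with shMyh9#4. This count was 14 without EV shMyh9#2 replicate 1 or without replicate 2, 19 without EV shMyh9#4 replicate 2 and 185 without EV shMyh9#4 replicate 1. The comparison of shMyh9#2 with shNC, which shares the EV shNC libraries with that of shMyh9#4, gave 988 calls (6.65%), 623 higher and 365 lower. Over the 216 genes called higher with shMyh9#4 the median log2 fold change was 1.05 with shMyh9#4 and 1.13 with shMyh9#2, and over the 38 called lower it was -0.65 and -0.78. Both columns are measured against the same 2 control libraries, and the genes were chosen on the first.

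Of the 254 genes 12 differed between the hairpins by the direct test, against 0.492% of all genes. The 254 were chosen with the same EV shMyh9#4 libraries that this test uses, so the 2 shares cannot be compared. Bgn showed the largest difference: it was at 128 and 125 CPM in EV shMyh9#2, where shMyh9#4 gave 14.6 and 17.1 CPM (log2 difference -2.99, SE 0.17, adjusted p = 1.79e-08). Col1a1 was at 17.5 and 23.7 CPM with shMyh9#2 (difference -1.82, SE 0.15, adjusted p = 4.87e-06) and Ankrd1 at 26.1 and 24.1 CPM (-0.82, SE 0.15, adjusted p = 0.026), again higher than with shMyh9#4. Nefl and Tnc fell with shMyh9#4 and were likewise lower with it than with shMyh9#2. Nefl was at 102 and 79.1 CPM with shMyh9#2, overlapping its controls, and Tnc was at 36.7 and 39.9 CPM, above its controls (differences of -1.21, adjusted p = 0.00054, and -1.17, adjusted p = 0.0015). The others were Myh9 itself, Runx1t1, Akr1c18, Atp1b1, Arhgap29, Cavin2 and Cyp26b1.

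Sox9 did not pass the test between hairpins, at 290 and 293 CPM with shMyh9#2 against 260 and 281 CPM (-0.11, SE 0.10, adjusted p = 0.68), nor did Fn1 (-0.26, SE 0.09, adjusted p = 0.16), Snai2 (-0.03, SE 0.13, adjusted p = 0.94) or Sox10 (0.39, SE 0.11, adjusted p = 0.099). Klf4 came closer, at 276 and 257 CPM with shMyh9#2 against 186 and 186 CPM (-0.52, SE 0.12, adjusted p = 0.059).

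Among the genes called between the hairpins and not between shMyh9#4 and shNC, those lowest with shMyh9#4 relative to shMyh9#2 included Tchh (-3.84), Tnfrsf9 (-3.05) and Stmn2 (-3.02). They were at 0.20 to 1.32 CPM with shMyh9#4 and at 3.40 to 8.08 CPM with shMyh9#2. On the other side stood Bag2 (1.96), Eif3j1 (1.60) and Usp50 (1.57), and the pseudogenes Gm10221 and Gm12191, which had 244 to 588 counts in each EV shMyh9#4 library and no count in EV shMyh9#2. Both were at least 118-fold higher against 3 counts per library. Estimated counts of near-identical copies can be split differently from library to library, and EV shNC also had 155 to 217 counts, so these differences are uncertain.

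**Figure D4:**
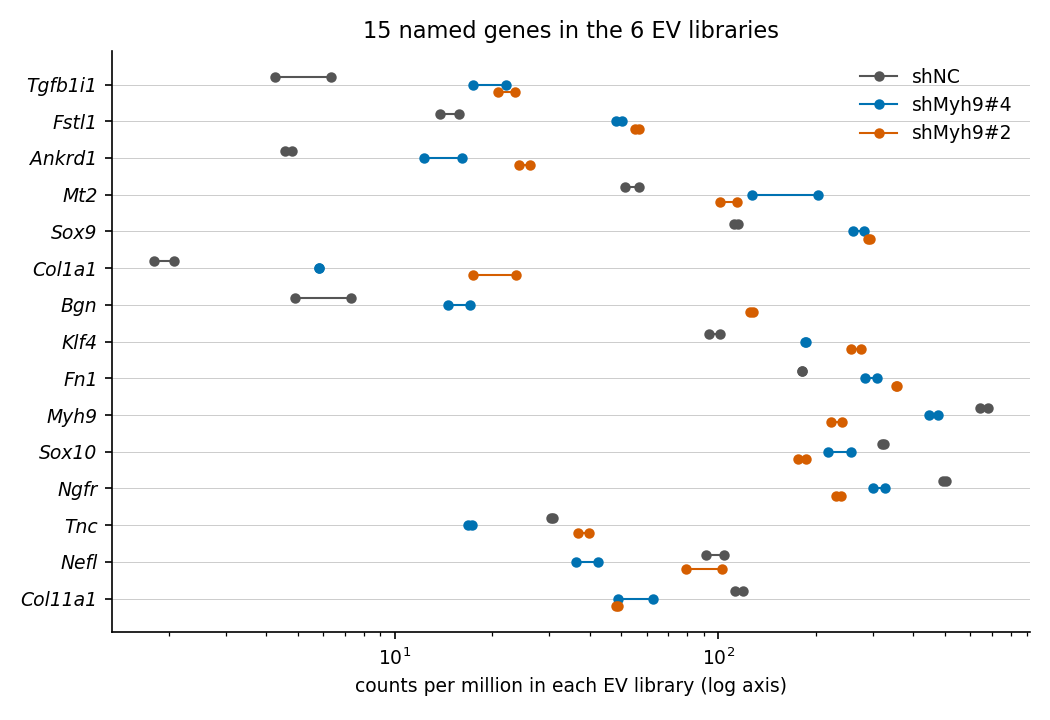
CPM (x axis, log scale) of 15 named genes (rows) in the 6 EV libraries, 2 points a group joined by a line. All 15 were drawn from the 254 genes called between shMyh9#4 and shNC. Those 254 all lie apart in these 2 groups, so the separation here was set by the choice. For Bgn and Col1a1 shMyh9#2 lies far beyond shMyh9#4, while for Nefl shMyh9#2 overlaps shNC and for Tnc it lies above shNC.

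The same hairpin in the other cells served to ask whether the changes came back in libraries that EV cells do not share. Few were called again. In WT-Bmal1 cells shMyh9#4 gave 13 genes higher (0.0876%) and 22 lower (0.148%). Of the 216 genes called higher in EV cells, 3 were among those 13 (1.39% of the EV list, 23.1% of the other): Ddr2, Vcam1 and Thsd4. Of the 38 called lower, 3 were among those 22 (7.89% and 13.6%): Myh9, Ctsh and Slc35f1. Tnnt2 and Htra1, higher in EV cells, were called lower there. Over the whole lists, 142 of 216 had a positive fold change in WT-Bmal1 cells (median 0.11) and 25 of 38 a negative one (median -0.18), while 50.6% of all genes were positive. Calls in WT-Bmal1 cells were few and depended on single libraries, from 1 without WT-Bmal1 shNC replicate 1 to 12 without WT-Bmal1 shMyh9#4 replicate 2.

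In dHLH-Bmal1 cells shMyh9#4 gave 932 genes higher (6.28%) and 1316 lower (8.86%), together 2248 calls, which became 194 without dHLH-Bmal1 shMyh9#4 replicate 2, 541 without dHLH-Bmal1 shNC replicate 1 and 1079 without dHLH-Bmal1 shNC replicate 2. Of the 216 genes higher in EV cells 17 were called higher there (7.87% of the EV list, 1.82% of the other) and 33 lower. Of the 38 lower in EV cells 3 were called lower (7.89% and 0.228%), and 22 were called higher. In sign, 34 of these 38 were positive in dHLH-Bmal1 cells (median 0.48), where 49.5% of all genes were positive. Taken singly, dHLH-Bmal1 shMyh9#4 replicate 1 was above the mean of its controls for 33 of the 38 genes and replicate 2 for 30. Chl1 stood at 389 and 403 CPM in EV shNC and fell to 222 and 225 CPM, while in dHLH-Bmal1 cells it stood at a mean of only 16.9 CPM with shNC and at 55.3 and 87.0 CPM with shMyh9#4 (2.09, SE 0.17, adjusted p = 5.73e-06). Ngfr stood at 46.3 and 55.6 CPM with shNC there and at 109 and 100 CPM with shMyh9#4 (1.05, SE 0.12, adjusted p = 0.00018). The starting levels of both genes in dHLH-Bmal1 cells were far below those in EV cells, and whether this bears on the change was not tested.

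The difference in effect was tested directly. It was called for 110 genes (0.741%) between WT-Bmal1 and EV cells and for 1264 genes (8.51%) between dHLH-Bmal1 and EV cells. Leaving out any 1 library but EV shMyh9#4 replicate 1 gave 38 to 69 for the first, and leaving out any 1 but EV shMyh9#4 replicate 1 or dHLH-Bmal1 shMyh9#4 replicate 1 gave 314 to 669 for the second. Sox9 is an example in both. With shNC it stood at 309 and 356 CPM in WT-Bmal1 cells and at 323 and 327 CPM in dHLH-Bmal1 cells. With shMyh9#4 it stood at 324 and 294 CPM and at 367 and 423 CPM. Its shMyh9#4 effect differed from that in EV cells by -1.37 on the log2 scale (SE 0.15, adjusted p = 0.00019) in WT-Bmal1 cells and by -0.98 (SE 0.15, adjusted p = 0.00094) in dHLH-Bmal1 cells. Fstl1 and Tgfb1i1 likewise stood high with shNC, at 160 and 186 CPM and at 46.3 and 63.0 CPM in WT-Bmal1 shNC, above their levels in EV shMyh9#4. So did Bgn, at 116 and 139 CPM in WT-Bmal1 shNC and 346 and 345 CPM in dHLH-Bmal1 shNC. Its log2 fold changes with shMyh9#4 were 0.68 (edgeR adjusted p = 0.058) and 0.76 (edgeR adjusted p = 0.0028) in these cells. Whether the starting level bears on the effect was not tested.

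Across all 3 kinds of cell 2 genes were called in the same direction. Myh9 fell in each. Ddr2, a receptor tyrosine kinase for fibrillar collagen, rose in each: it went from 78.2 and 87.2 CPM to 159 and 160 CPM in EV cells (0.95, SE 0.11, adjusted p = 9.06e-05), from 216 and 245 CPM to 390 and 345 CPM in WT-Bmal1 cells (0.67, SE 0.11, adjusted p = 0.019) and from 285 and 308 CPM to 356 and 424 CPM in dHLH-Bmal1 cells (0.40, SE 0.11, adjusted p = 0.020). In EV cells the call of Ddr2 held under every alternative. It did not elsewhere: in WT-Bmal1 cells the adjusted p was 0.20 without WT-Bmal1 shNC replicate 1, 0.059 without WT-Bmal1 shNC replicate 2, 0.12 without WT-Bmal1 shMyh9#4 replicate 1 and 0.10 with the WT-Bmal1 libraries alone. In dHLH-Bmal1 cells it was 0.15 without dHLH-Bmal1 shNC replicate 1, 0.069 without dHLH-Bmal1 shNC replicate 2, 0.28 without dHLH-Bmal1 shMyh9#4 replicate 2 and 0.063 with the dHLH-Bmal1 libraries alone. The size differed between EV and dHLH-Bmal1 cells (difference -0.55, adjusted p = 0.035).

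**Figure D5:**
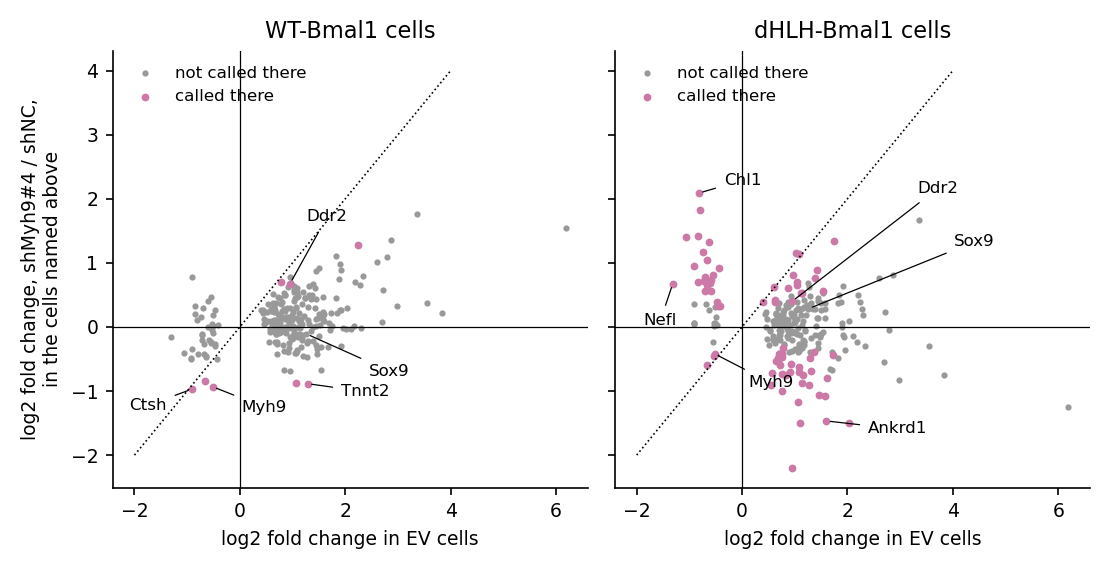
The 254 genes called in EV cells, by their log2 fold change with shMyh9#4 in EV cells (x axis) and in WT-Bmal1 (left) or dHLH-Bmal1 cells (right, y axis); pink points were called in the cells on the y axis and the dotted line marks equal change. Myh9 and Ddr2 lie in the matching quadrants of both panels, and most of the 38 genes that fell in EV cells lie above 0 in dHLH-Bmal1 cells.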

How the data were processed

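RNA of YUMM2.1 cells was sequenced with QuantSeq FWD as single reads of 75 bases. Per the labels and the study's methods, the authors aligned the reads to mm10, counted them with RSEM and deposited 1 table of counts per gene. Its values are whole numbers, not normalized. The strand setting and the Ensembl release are not given in the sources used here, so reads of overlapping genes cannot be told apart. Columns were matched to samples by name.

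From the deposited counts, 14848 of 51789 genes passed edgeR's filterByExpr. They were scaled by TMM and fitted with edgeR 4.0.16 (R 4.3.3) as 9 groups of 2 libraries without a replicate block, using 18 libraries and 9 residual degrees of freedom, so that all groups share 1 estimate of the spread. Quasi-likelihood F tests were two-sided, and p-values were adjusted by Benjamini-Hochberg over all genes. With 2 libraries against 2, an exact permutation test of a single value cannot go below 0.333. Intervals and floors (3 counts per library) cover counting error only.

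Genes were named by rule: Myh9, genes the study names, the 10 largest called changes in each direction among genes averaging 10 or more counts and not overlapping, up to 4 called members a list by size of change, and the leading called genes of the tests between hairpins and between constructs. Other genes were given as list members or as members of a count, and 1 gene that the rule names is not reported here. The members and lists were chosen with earlier results of these data known. Gene names and places come from GENCODE M21, promoters from RefSeq. The fit was tested on simulated counts. Alternatives were DESeq2 1.42.0, its size factors, other filters, a 2-fold minimum, a replicate block, fewer libraries and each library left out.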

Additional observations from a re-analysis of the deposited data

Results flagged for a closer look

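For the named genes the effect of shMyh9#4 in WT-Bmal1 or dHLH-Bmal1 cells was set against that in EV cells by an interaction term of the edgeR fit, and 76 differences had an adjusted p under 0.05, 23 for WT-Bmal1 and 53 for dHLH-Bmal1. Values are log2 differences, other cells minus EV, and the dHLH-Bmal1 values rest on the 2 shallow shMyh9#4 libraries described above. Many of these genes were named for their change in EV cells, and some for leading the interaction test, so the counts say nothing of genes in general. Each difference also subtracts that EV change. For genes named by it, the choice itself favours a difference of the opposite sign, so the signs below cannot be read as a trait of the constructs. No cause was tested.

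Among genes called in EV cells, the effect in WT-Bmal1 cells was lower for Cdh5 (-2.23), Acsbg1 (-2.22), Tnnt2 (-2.17), Mgll (-2.06), Egln3 (-1.66), Tgfb1i1 (-1.63), Fstl1 (-1.52), Mt2 (-1.52), Nupr1 (-1.46), Ankrd1 (-1.39), Sox9 (-1.37), Chac1 (-1.17), Col1a1 (-1.12), Klf4 (-0.86) and Fn1 (-0.60), all of which rose in EV cells. It was higher for Cndp1 (1.68), Tnc (1.16), Nefl (1.16) and Chl1 (0.93), which fell there. Mgll, the lipase of monoacylglycerols, was at 1.44 and 2.39 CPM in EV shNC and at 7.81 and 7.94 CPM in EV shMyh9#4. Tnnt2, the cardiac troponin T, was at 8.97 and 12.3 CPM against 25.2 and 26.8 CPM in EV cells and was called lower with shMyh9#4 in WT-Bmal1 cells (-0.89). Outside the genes called in EV cells, Arhgap20 (2.12), Cers6 (1.48) and Gm26870 (1.24) were higher and Gm43792 (-2.13) was lower.

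In dHLH-Bmal1 cells the effect was lower for Tpm2 (-3.84), 4930556M19Rik (-3.81), Rps6ka6 (-3.24), Ankrd1 (-3.06), Trpa1 (-2.84), Elavl4 (-2.63), Ly6a (-2.48), Mt2 (-2.40), Fstl1 (-2.17), Bicc1 (-2.11), Etl4 (-2.06), Cdh5 (-2.04), Mgll (-1.92), Tgfb1i1 (-1.90), Tnnt2 (-1.76), Acsbg1 (-1.62), Col1a1 (-1.44), Snai2 (-1.43), Nupr1 (-1.35), Ndrg1 (-1.29), Egln3 (-1.25), Sox9 (-0.98), Chac1 (-0.93), Fn1 (-0.89), Herpud1 (-0.79), Gstm1 (-0.76), Klf4 (-0.72) and Ddr2 (-0.55). It was higher for Chl1 (2.91), Col11a1 (2.47), Itga1 (2.27), Nefl (1.99), Mmp15 (1.86), Ngfr (1.72), Tnc (1.55), Sox10 (1.36), Akap12 (1.27) and Ctsh (0.96). Of genes not called in EV cells, Prrx2 (-2.68), Eif3j1 (-2.38), Lmo1 (-2.32) and Junb (-1.56) were lower.

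The differences with the largest values, Gm26377 (-15.12), Gm10095 (15.08), Gm4737 (-11.59), Rps12-ps22 (-10.40), Gm12411 (9.49), Nudt8 (-8.87), Gm21092 (-8.40), Gm48427 (7.53), Rims1 (5.28) and Gm5446 (5.20), with Gm43792 (-1.91), were in pseudogenes, short or overlapping genes and genes at or near 0 counts in some groups, where estimated counts are uncertain and the fitted value depends on the prior count.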

How the results depend on the processing

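In EV cells the 254 calls of shMyh9#4 against shNC became 120 with a change of at least 2-fold, 430 with no filter on low counts and 110 to 253 with 1 library left out. Other alternatives gave 178 to 321. Between the hairpins the 73 calls became 31, 742 and 14 to 185, and also 359 with DESeq2 and 390 with the EV libraries alone. For shMyh9#2 the 988 calls became 374, 1542 and 337 to 442. In WT-Bmal1 cells the 35 calls became 7, 305 and 1 to 12, 244 with DESeq2 and 1 with the WT-Bmal1 libraries alone. In dHLH-Bmal1 cells the 2248 calls became 780, 194 to 2074 with 1 library left out, and 1256 with the dHLH-Bmal1 libraries alone. The 110 differences between WT-Bmal1 and EV cells became 70, 317 with no filter, 38 to 144, and 197 with DESeq2, and the 1264 between dHLH-Bmal1 and EV cells became 737 and 314 to 1421. The causes were not tested. Fits with 1 library left out assume that the lone library varies like the other groups. The fit without both dHLH-Bmal1 shMyh9#4 libraries, chosen after seeing the data, gave 268 calls in EV cells.

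The replicate numbers did not pair the samples: replicate differences correlated above 0.1 in 2 of 36 pairs of groups, and at 0.00079 between EV shMyh9#4 and EV shNC. A replicate block gave 241 calls in EV cells, 236 of them among the 254, and 23 in WT-Bmal1 cells.

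Of the 46 named genes called in EV cells 20 kept the call under all 12 alternatives and 26 lost it under at least 1, none with a change of sign. The interaction value of Gm12411 in dHLH-Bmal1 cells turned to -0.55 without dHLH-Bmal1 shMyh9#4 replicate 1 and was 10.60 without replicate 2. Genes at a few counts per library have little precision at this depth.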
